A study of Mus musculus with 6 samples.

Results

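The nuclear-encoded subunits of the mitochondrial respiratory chain were examined in brain RNA of APP/PS1 mice given saline or AVE0991. Members were chosen by symbol alone: every gene row of the deposited table that starts with Nduf, Uqcr, Atp5 or Cox4 to Cox8, or that is Sdha, Sdhb, Sdhc or Sdhd. This gave 95 of 36210 gene rows. They comprise 7 core and 30 accessory subunits of complex I, 8 complex I assembly factors (Ndufaf genes), 4 complex I paralogs, 4 subunits of complex II, 8 of complex III, 17 of complex IV and 17 genes of ATP synthase.

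The respiratory chain of the inner mitochondrial membrane moves electrons from NADH (complex I) and succinate (complex II) through ubiquinone to complex III, and through cytochrome c to complex IV, which reduces oxygen. Complexes I, III and IV pump protons outwards, and ATP synthase makes ATP as the protons flow back. Most subunits are encoded in the nucleus and imported, while a few catalytic ones are encoded by mitochondrial DNA. In brain the chain meets the high ATP demand of neurons, and astrocytes combine it with strong glycolysis.

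All 6 libraries came from 8-month-old mice of the APP/PS1 strain, which carries mutant human amyloid precursor protein and presenilin transgenes and forms amyloid plaques. The promoters that drive the transgenes are among the details not given in the sources used here, and mice without the transgenes were not analysed. The 3 vehicle libraries were from mice that received 0.9% saline, and the 3 AVE0991 libraries from mice that received AVE0991 at 10 mg/kg, in both cases as 1 intraperitoneal injection daily over 30 days. AVE0991 is a synthetic agonist of the angiotensin-(1-7) receptor Mas1, and the series title asks about its action on astrocytes. Separate animals per library are not stated, and every p-value therefore covers the spread among 6 libraries, which may be technical.

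The libraries held 44583296 to 50066692 counts on gene rows. The cells are labelled astrocytes, yet RNA of other brain cells was plentiful. In vehicle libraries the median level of 12 astrocyte markers was 205 CPM (counts scaled to library size), against 335 CPM for 12 neuron and 397 CPM for 8 oligodendrocyte markers. By summed level in vehicle libraries astrocyte markers stood above neuron markers, at 6118 to 7454 CPM against 5059 to 5424 CPM. Cerebellar granule cell markers had 10 of 10 members higher in AVE0991 libraries, with a median log2 fold change of 1.70. Their summed level was 454 to 473 CPM in vehicle libraries, 555 CPM in AVE0991 replicate 1, and 2191 and 2100 CPM in replicates 2 and 3, which stood apart. Astrocyte markers had 11 of 12 members higher (median 0.63), with summed levels of 6118 to 7454 CPM with vehicle and 6928 to 8781 CPM with AVE0991. Blood markers had 5 of 5 lower (median -1.76), with summed levels of 50.9 to 349 and 24.7 to 100.3 CPM. Markers lay below 0 in 6 of 7 endothelial, 7 of 8 pericyte and smooth muscle, and 7 of 8 ependymal and choroid plexus genes. Neuron, oligodendrocyte and microglia markers were evenly split, with 6 of 12, 4 of 8 and 4 of 8 above 0. Summed oligodendrocyte levels were 3704, 7968 and 8041 CPM in vehicle and 5601, 11952 and 5961 CPM in AVE0991 replicates 1 to 3. In all of these lists 0 genes passed the test and no marker was at 0 in every library. Their part in the values below was not tested, and in such bulk RNA fewer cells of a type and less RNA per cell cannot be told apart.

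Levels were compared between genes by FPKM, the authors' fragment counts scaled to transcript length and library size, averaged over the 6 libraries. The chain was highly expressed: the median over the 95 members was 70.9 FPKM, against 4.20 FPKM over the 20363 genes tested, and 80 members reached 10 FPKM. Cox4i1, the broadly expressed subunit 4 of cytochrome c oxidase (complex IV), was highest at 715 FPKM. The next were Atp5b (638 FPKM), the catalytic beta subunit of ATP synthase, Cox8a (477 FPKM) and Atp5a1 (395 FPKM), the alpha subunit. Each of the other complexes had a lower leading gene: Ndufb8 (201 FPKM) in complex I, Uqcrc1 (189 FPKM) in complex III and Sdha (130 FPKM) in complex II. By class, the median was 115 FPKM in complex IV, 114 in ATP synthase, 89.5 in complex III, 87.0 in complex II, 73.4 among core and 67.8 among accessory subunits of complex I. The Ndufaf assembly factors, which build complex I without remaining in it, had a median of 9.77 FPKM, and their highest member, Ndufaf3, reached 19.2 FPKM.

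**Figure D1:**
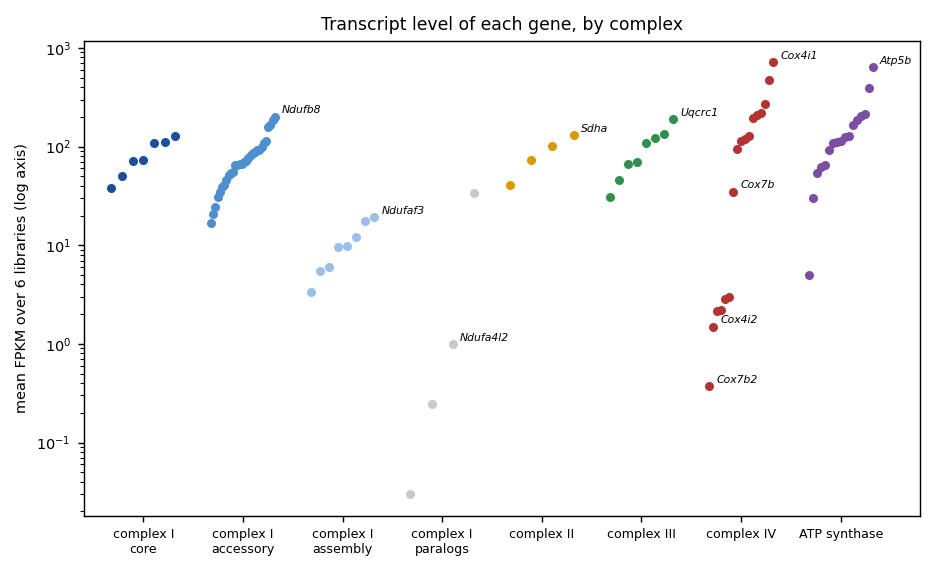
Mean FPKM over the 6 libraries for each of the 95 genes (points, log axis), sorted within each class. Assembly factors lie between 3.38 and 19.2 FPKM, all accessory subunits lie at 16.9 FPKM or more, and 6 complex IV genes lie below 3 FPKM, well under the other 11.

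Tissue-restricted forms of complex IV subunits were near the floor in every library. Cox4i2, the form typical of lung, took 0.186% to 0.242% of the summed FPKM of Cox4i1 and Cox4i2. Cox6a2 and Cox8b, forms of heart and skeletal muscle, took 0.197% to 1.44% and 0.239% to 1.02% of their pairs with Cox6a1 and Cox8a. Cox7a1, another muscle form, took 2.00% to 4.26% of its pair with Cox7a2, the largest such share. Cox6b2, known from testis, took 1.08% to 2.03% beside Cox6b1, and Ndufa4l2, a hypoxia-responsive paralog, took 0.510% to 0.845% beside Ndufa4. Cox7b2, a testis form, had 1, 11 and 3 counts in vehicle and 12, 15 and 10 counts in AVE0991 libraries. It did not pass at 1.37 on the log2 scale (SE 0.69, edgeR adjusted p = 0.276). Ndufb4b and Ndufa11b were too low to test, with at most 15.9 and 2 counts in any library.

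Promoter windows were examined because nuclear respiratory genes are known targets of the factors NRF1, GABP (of the ETS family) and YY1. RefSeq windows on GRCm38.p6, from 250 bases before to 50 after the start, were matched by gene identifier for 77 of the 95 members (82 windows). Both strands were searched for GCGCA followed after any 1 base by GCGC (NRF1), CCGGAAG (the ETS core) and AAGATGGC (YY1), which do not contain each other. The NRF1 letters were in 20 of 82 member windows (24.4%), against 4.60% of 32851 windows of all genes. The ETS letters were in 18 (22.0%, against 8.86%) and the YY1 letters in 11 (13.4%, against 2.75%), and 42 windows held at least 1 of the 3. Member windows were also richer in G and C, with a median of 58% against 52.7%. By class, NRF1 letters were in 2 of 3 complex II, 6 of 18 ATP synthase and 8 of 30 accessory windows, but in 0 of 5 core and 1 of 13 complex IV windows. YY1 letters were in 6 of 30 accessory windows and in none of the windows of complexes II, III and IV. The 250 bases before the start are shown for 4 genes chosen after their values were seen: Cox7b, the member that passed the test below, Sdha, with 3 NRF1 matches, Ndufaf4, with 1 NRF1 match, and Cox6b1, with an ETS match. Capitals mark the matches, and the Cox7b stretch has none. A match is a description of letters, not evidence of binding.
Cox7b, chrX:106015450-106015699, plus strand: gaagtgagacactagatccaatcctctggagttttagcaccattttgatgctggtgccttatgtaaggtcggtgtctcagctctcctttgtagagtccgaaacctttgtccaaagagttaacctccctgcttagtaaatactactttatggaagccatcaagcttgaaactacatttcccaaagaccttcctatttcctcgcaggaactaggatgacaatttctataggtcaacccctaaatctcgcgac
Sdha, chr13:74350241-74350490, minus strand: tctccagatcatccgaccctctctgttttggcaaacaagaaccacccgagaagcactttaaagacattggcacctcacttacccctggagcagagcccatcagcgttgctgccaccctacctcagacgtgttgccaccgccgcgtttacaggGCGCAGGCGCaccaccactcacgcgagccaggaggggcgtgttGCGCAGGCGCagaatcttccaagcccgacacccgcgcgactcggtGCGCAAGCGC
Ndufaf4, chr4:24897833-24898082, plus strand: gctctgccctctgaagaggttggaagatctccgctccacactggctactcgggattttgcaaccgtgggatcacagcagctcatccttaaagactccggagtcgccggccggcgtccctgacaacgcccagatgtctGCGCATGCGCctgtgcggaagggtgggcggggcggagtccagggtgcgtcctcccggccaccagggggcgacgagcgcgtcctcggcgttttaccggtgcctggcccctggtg
Cox6b1, chr7:30626115-30626364, minus strand: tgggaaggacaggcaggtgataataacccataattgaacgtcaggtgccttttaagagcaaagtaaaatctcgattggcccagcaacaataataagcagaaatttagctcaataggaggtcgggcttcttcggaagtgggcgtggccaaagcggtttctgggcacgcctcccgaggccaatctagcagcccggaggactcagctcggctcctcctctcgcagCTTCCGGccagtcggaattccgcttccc

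AVE0991 was then compared with vehicle, the comparison the design was made for, in edgeR's quasi-likelihood test across all genes, with Benjamini-Hochberg adjustment over all 20363 genes tested. Of the 93 members tested, 1 fell (Cox7b) and 0 rose at an adjusted p under 0.05. Across all genes tested 0.83% were called lower and 0.0344% higher (0.864% in all), so a count of 1 is near the background. At an unadjusted p under 0.05 there were 9 members (9.68%; 2 higher, 7 lower), against 23.6% of all genes (10.9% higher, 12.7% lower). The chain as a whole stood close to its vehicle level: 45 members (48.4%) lay above 0 and 48 below, against 49.3% of all genes above 0, with a median log2 fold change of -0.05, beside -0.01 over all genes. The member median depended on the scaling, at -0.13 in alternative fits on log2 FPKM, beside -0.09 and -0.05 over all genes there. Between their quartiles in the edgeR fit the members ran from -0.16 to 0.13, and all genes from -0.33 to 0.23. Within 0.25 of 0 lay 76 of 93 members (81.7%) and 46.8% of all genes. Among genes of at least 10 CPM these shares were 72 of 80 (90.0%) and 57.6%. The median standard error was 0.12 for members and 0.21 for all genes, so most single members could not be told from 0. In 28 members (30.1%) the groups did not overlap by CPM, 16 with all AVE0991 libraries higher and 12 lower. The shares over all genes were 14.3% higher and 16.3% lower, or 30.6% together.

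**Figure D2:**
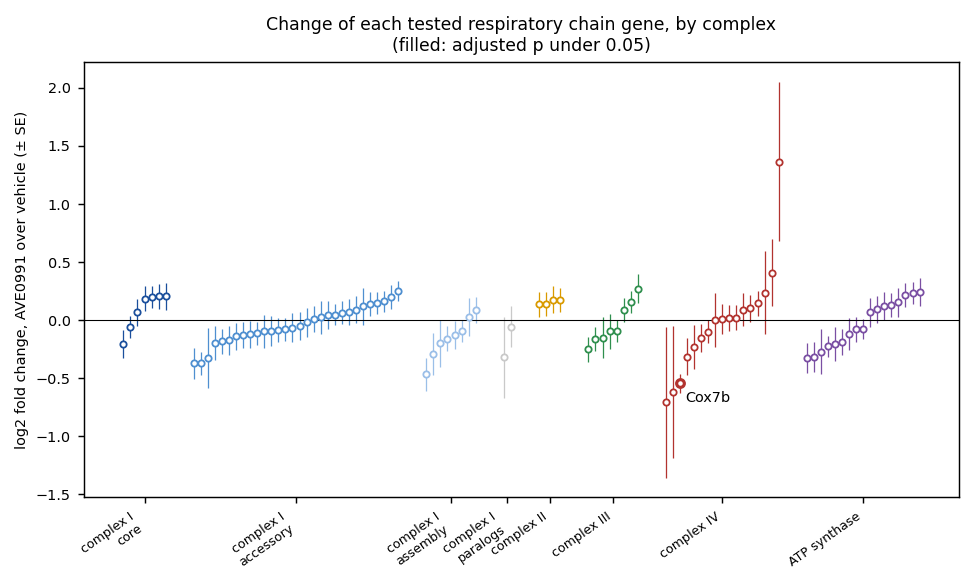
Log2 fold change of AVE0991 over vehicle for each of the 93 tested genes with its standard error, sorted within each class (filled: adjusted p under 0.05). Cox7b, at -0.54, is the 1 filled point, and all 4 complex II genes lie between 0.13 and 0.17.

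Cox7b encodes a small membrane subunit of cytochrome c oxidase that lies outside the catalytic core, and its gene is X-linked. It stood at 38.2, 40.2 and 37.9 CPM in the vehicle libraries and at 26.9, 26.3 and 26.5 CPM in the AVE0991 libraries. The groups were separated by over 10 CPM and the AVE0991 libraries lay within 1 CPM of each other. Cox7b fell 1.46-fold (log2 change -0.54, SE 0.08, edgeR adjusted p = 0.0479). In the authors' deposited table, whose p- and q-values came from DESeq2, it had a log2 fold change of -0.52 and a q-value of 0.000524. It was the 1 member of 95 with a deposited q-value under 0.05, where 4.71% of 33677 rows passed, 2.93% in the lower direction. The edgeR call sat at the threshold: with any 1 library other than AVE0991 replicate 1 left out, the adjusted p was 0.109 to 0.227 at a log2 fold change of -0.56 to -0.52. The Cox7b transcript had 42.0% GC, and with a per-library correction for GC content its log2 change was -0.22 (adjusted p = 0.297).

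The other 16 complex IV genes did not pass, and 10 of the 17 lay above 0 (median 0.01). After GC correction it was 5 of 17 (median -0.10), 4 of 17 (-0.16) with the transcript of nearest length, and 9 of 17 (0.02) with GC and length corrected together. These counts include the tissue-restricted forms near the floor. Of the 11 broadly expressed subunits, grouped after the values were seen, 6 lay above 0 (median 0.01). After the same 3 corrections, in that order, 2 (median -0.10), 1 (-0.16) and 6 (0.02) of the 11 did. Cox6c, another small subunit, stood at 102, 111 and 96.6 CPM with vehicle and 93.2, 64.3 and 91.3 CPM with AVE0991. Its groups did not overlap, but replicate 2 was far below the others (log2 fold change -0.31, SE 0.16, adjusted p = 0.275). Cox4i1, which takes part in the regulation of the enzyme by ATP, stood at 441, 478 and 483 CPM and at 548, 468 and 532 CPM, with overlapping groups (0.14, SE 0.11). Cox8a stood at 245, 237 and 215 CPM against 252, 199 and 252 CPM, a difference of 0.01 (SE 0.13). Cox5a and Cox5b, which contact the catalytic core on the matrix side, differed by 0.09 (SE 0.14) and 0.02 (SE 0.11), and Cox7a2l, which helps to join complex IV to complex III, by 0.02 (SE 0.11).

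In complex I the core subunits, which carry the flavin and iron-sulfur clusters, lay above 0 in 5 of 7 (median 0.19), and 0 passed. Ndufs8, which carries iron-sulfur clusters, stood at 48.0, 53.9 and 53.2 CPM with vehicle and 60.0, 56.0 and 62.1 CPM with AVE0991 (log2 difference 0.20, SE 0.09, adjusted p = 0.254). Ndufs7 stood at 60.6, 76.3 and 75.3 CPM against 81.5, 82.9 and 80.1 CPM (0.20, SE 0.11). Ndufv1, which binds NADH, stood at 148, 168 and 165 CPM against 175, 199.6 and 174 CPM (0.19, SE 0.11). In these 3 genes every AVE0991 library was above every vehicle library by CPM, and vehicle replicate 1 was the lowest. By FPKM the groups overlapped in all 3, with Ndufs8 at 64.04, 74.93 and 72.25 FPKM against 79.4, 71.03 and 78.48 FPKM. Ndufv2 lay on the other side, at 72.8, 89.2 and 80.4 CPM against 74.1, 61.3 and 74.6 CPM (-0.21, SE 0.12), with overlap. After GC correction the core median was 0.02, with 4 of 7 above 0 (7 of 7 with the transcript of nearest length), and Ndufs7 stood at -0.0039.

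Accessory subunits surround the core and are needed for its assembly and stability. They were split, with 13 of 30 above 0 and a median of -0.06. After GC correction it was 10 of 30 (median -0.09), 5 of 30 (-0.11) with the transcript of nearest length, and 16 of 30 (0.0036) with GC and length corrected together. Ndufs4, a subunit near the NADH-binding module whose loss causes Leigh-like encephalopathy in mice, stood at 28.2, 29.5 and 28.7 CPM with vehicle and 22.1, 20.5 and 24.4 CPM with AVE0991. The groups did not overlap (log2 fold change -0.37, SE 0.10), but the edgeR adjusted p of 0.114 did not pass. DESeq2, which called 7.11% of genes lower, called it with adjusted p = 0.0364, and over all alternatives it ranged from 0.0364 to 0.676. Ndufa4, grouped here by its symbol but known as a subunit of complex IV, stood at 73.6, 89.4 and 69.0 CPM against 59.8, 53.6 and 65.9 CPM (-0.37, SE 0.13, adjusted p = 0.166), also without overlap. Ndufv3, a small subunit of the NADH-binding module, had the largest positive difference among the accessory subunits, at 34.4, 38.6 and 37.8 CPM against 44.3, 43.4 and 43.9 CPM (0.25, SE 0.09, adjusted p = 0.162). After GC correction Ndufs4 stood at -0.12, Ndufa4 at 0.054 and Ndufv3 at 0.14, and with the transcript of nearest length Ndufa4 stood at -0.21. The accessory subunits of highest level overlapped between groups: Ndufb8 stood at 100.1, 128 and 124 CPM against 128, 126 and 120.5 CPM (0.09, SE 0.12), and Ndufb9 at 117, 124 and 111 CPM against 116, 81.3 and 109.7 CPM (-0.20, SE 0.15). The paralogs Ndufb4, Ndufb4b and Ndufb4c, and Ndufa11 and Ndufa11b, resemble each other closely, and with the division of shared reads not given in the sources used here their values are uncertain.

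Of the 8 assembly factors 6 lay below 0 (median -0.14), and 0 passed. Ndufaf4, which acts early in assembly of the ubiquinone-binding part, stood at 9.88, 9.49 and 11.3 CPM with vehicle and 7.10, 8.36 and 6.67 CPM with AVE0991 (log2 difference -0.47, SE 0.14, adjusted p = 0.132). Ndufaf2 stood at 3.77, 4.23 and 3.59 CPM against 3.27, 3.53 and 2.66 CPM (-0.29, SE 0.18), and Ndufaf1 at 13.2, 15.01 and 14.0 CPM against 13.1, 12.9 and 11.8 CPM (-0.16, SE 0.11). The groups did not overlap in these 3. They did in the factors of highest level: Ndufaf3 stood at 18.01, 19.998 and 18.53 CPM against 21.7, 17.7 and 20.6 CPM (0.08, SE 0.11) and Ndufaf5 at 16.7, 18.7 and 20.6 CPM against 15.5, 18.4 and 17.5 CPM (-0.13, SE 0.12). After GC correction Ndufaf4 stood at 0.02 and the class median at -0.07.

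**Figure D3:**
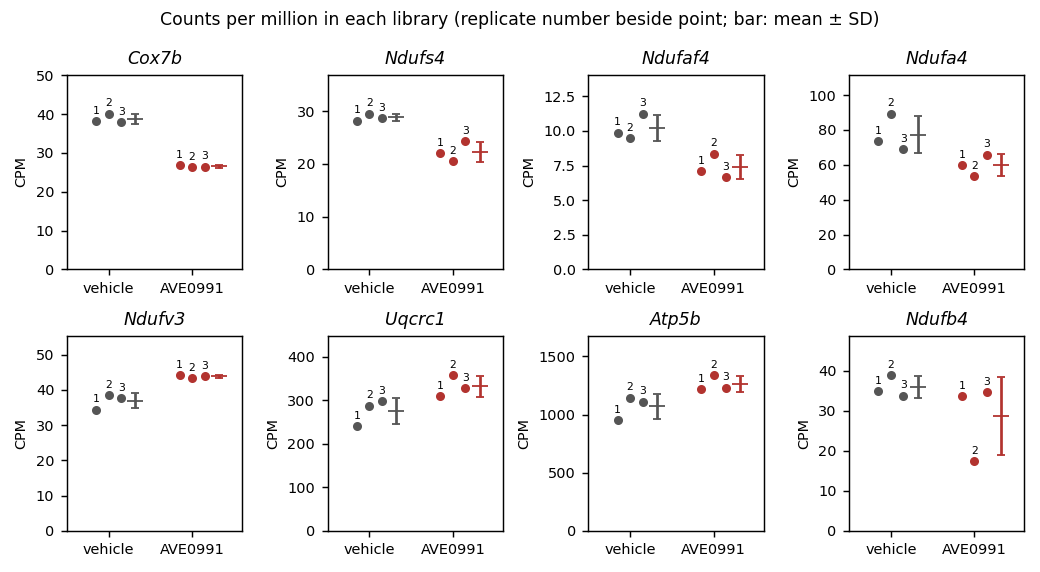
CPM of 8 genes in each library (points, numbered by replicate) with the mean and SD of 3 libraries beside them, each axis starting at 0. Cox7b, Ndufs4, Ndufaf4 and Ndufa4 are lower and Ndufv3, Uqcrc1 and Atp5b higher in all AVE0991 libraries, with only Cox7b passing the edgeR test, while Ndufb4 is low in AVE0991 replicate 2 alone.

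Complex II, succinate dehydrogenase, is the 1 complex encoded wholly in the nucleus and belongs also to the citric acid cycle. All 4 subunits lay above 0, between 0.13 and 0.17, and 0 passed. Sdha, the flavoprotein that oxidizes succinate, stood at 329, 351 and 362 CPM with vehicle and 369, 417 and 360.5 CPM with AVE0991 (log2 difference 0.14, SE 0.11, adjusted p = 0.463). Sdhb, the iron-sulfur subunit, stood at 88.2, 105 and 103 CPM against 114, 103 and 109 CPM (0.13, SE 0.11). Both pairs of groups overlapped. The membrane anchors did not overlap: Sdhc stood at 66.5, 84.2 and 82.5 CPM against 84.6, 90.3 and 88.3 CPM (0.17, SE 0.12), and Sdhd at 42.6, 50.4 and 47.3 CPM against 52.0, 55.8 and 50.6 CPM (0.17, SE 0.10). By FPKM the groups overlapped in both anchors too. Vehicle replicate 1 was the lowest library for all 4. After GC correction 3 of 4 lay above 0.

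In complex III, 3 of 8 lay above 0 (median -0.09), and 0 passed. Grouped by role after their values were seen, the 3 large subunits Uqcrc1, Uqcrc2 and Uqcrfs1 lay above 0 (median 0.16) and the 5 small subunits below (median -0.15). Uqcrc1, a core protein, stood at 241, 287 and 297 CPM with vehicle and 309, 358 and 328 CPM with AVE0991 (log2 difference 0.27, SE 0.12, adjusted p = 0.232). Uqcrfs1, the Rieske iron-sulfur protein, stood at 72.8, 83.3 and 83.0 CPM against 88.4, 90.3 and 87.8 CPM (0.16, SE 0.09). Uqcrb, a small subunit at the ubiquinone site, stood at 15.6, 15.1 and 14.2 CPM against 11.9, 13.7 and 12.1 CPM (-0.25, SE 0.11, adjusted p = 0.217). None of these 3 overlapped between groups, whereas Uqcr11, at 54.1, 54.2 and 48.8 CPM against 56.3, 38.6 and 52.0 CPM (-0.10, SE 0.15), did. By FPKM the groups overlapped in Uqcrfs1 as well, but not in Uqcrc1 or Uqcrb. The length implied by counts and FPKM had a median of 1600 bases in the 3 large and 445 bases in the 5 small subunits. After GC correction 1 of the 5 small subunits lay above 0, namely Uqcrb, at 0.18.

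ATP synthase was divided in the same manner, again by roles grouped after the values were seen. The alpha, beta, gamma and delta subunits of the F1 head lay above 0 in 4 of 4 (median 0.17). The 3 genes of the membrane c ring did in 3 of 3 (0.12), and the other genes in 1 of 10 (-0.19). These others include Atp5e, the epsilon subunit of the same F1 head, at -0.19 (SE 0.11). With Atp5e placed apart after the values were seen, the 4 of 4 is no test of a division. Over all 17 the median was -0.08, and 0 passed. Atp5b stood at 951, 1145 and 1111 CPM with vehicle and 1222, 1342 and 1231 CPM with AVE0991 (log2 difference 0.24, SE 0.12, adjusted p = 0.268). Atp5a1 stood at 804, 911 and 899 CPM against 1010.4, 1044 and 983 CPM (0.22, SE 0.11, adjusted p = 0.265). Atp5g2, 1 of the 3 genes that encode the identical mature c subunit, stood at 64.6, 74.8 and 70.6 CPM against 85.7, 81.3 and 80.0 CPM (0.23, SE 0.09, adjusted p = 0.199). By CPM all 3 were without overlap, while by FPKM the groups overlapped in each. On the other side, Atp5f1, subunit b of the peripheral stalk, stood at 105, 119 and 113 CPM against 92.8, 101 and 94.3 CPM (-0.23, SE 0.09, adjusted p = 0.202). Atp5mpl, a small membrane subunit, stood at 17.4, 21.6 and 17.1 CPM against 14.5, 14.3 and 16.3 CPM (-0.32, SE 0.13), and Atp5s, or factor B, at 8.99, 9.02 and 10.6 CPM against 7.58, 7.92 and 7.38 CPM (-0.32, SE 0.13). These 3 did not overlap by CPM or by FPKM. The division narrowed after GC correction, to 2 of those 4 F1 subunits and 4 of 10 others above 0. With the GC content of the transcript of nearest length it was 3 of 4 and 3 of 10. With GC and length corrected together it was 3 of 4 (median 0.03) and 5 of 10 (0.0040), and 3 of 3 in the c ring (0.15). The length implied by counts and FPKM had a median of 1473 bases in the 4 F1 subunits and 507 bases in the 10 others. Atp5f1 depended on the transcript taken, at 0.42 with the longest (37.0% GC) and -0.25 with that of nearest length (49.1% GC).

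Variation between libraries of the same group was shared by many members. Vehicle replicate 1 was the lowest of the 6 libraries for 37 of 93 members (39.8%, against 23.5% of all genes), and AVE0991 replicate 2 for 35 (37.6%, against 23.7%). Vehicle replicate 2 was the highest for 41 members (44.1%, against 10.6%) and the lowest for 0. The median deviation of all members from their vehicle mean was -0.09, 0.11 and -0.02 in the vehicle and 0.04, -0.11 and -0.01 in the AVE0991 libraries, on the log2 scale, so the vehicle libraries alone spanned a wider range than the difference between group means. AVE0991 replicate 2 was low in several small subunits: Ndufb4 stood at 17.4 CPM there and at 33.7 and 34.7 CPM in replicates 1 and 3, Ndufb9 at 81.3 CPM against 116 and 109.7 CPM, Cox7c at 33.4 CPM against 54.4 and 52.3 CPM, and Uqcrq at 47.6 CPM against 73.5 and 70.4 CPM. Other members, chosen after their values were seen, went either way in that library: Sdha at 417 CPM and Uqcrc1 at 358 CPM were the highest of the 6, and the core subunit Ndufv2 at 61.3 CPM was the lowest. With replicate 2 left out, 51 of 93 members lay above 0 (median 0.04). With AVE0991 replicates 2 and 3 both left out, which leaves replicate 1 against the 3 vehicle libraries, it was 53 of 93 (median 0.04) and Cox7b stood at -0.52. Only the vehicle libraries give a spread there, so these are values with no test of the members. The 4 complex II genes and 5 of 7 core subunits of complex I lay above 0 in both of these comparisons, which keep vehicle replicate 1. Without vehicle replicate 1, 39 of all 93 members lay above 0, with 4 of 4 in complex II (median 0.11) and 4 of 7 core subunits (median 0.13), and Sdhc stood at 0.0949 and Ndufs7 at 0.13.

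**Figure D4:**
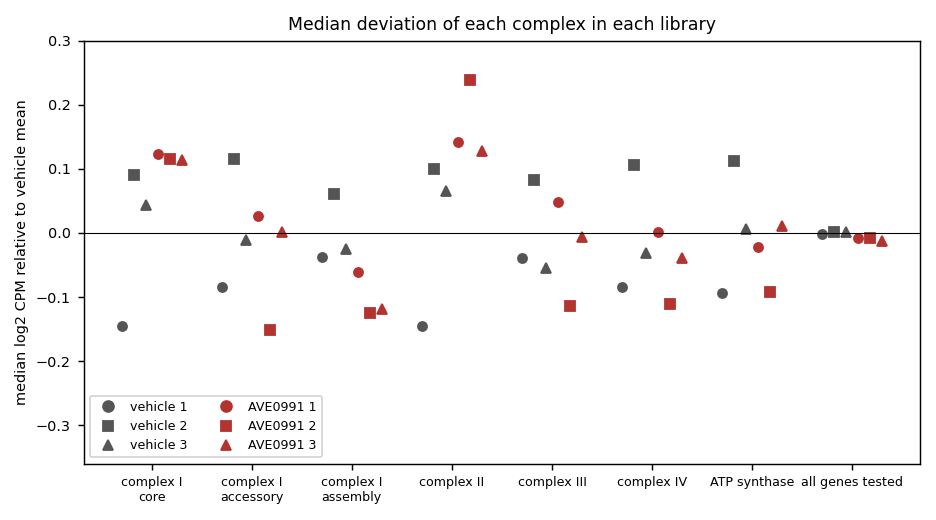
Median over the genes of each class of the log2 CPM of a library relative to the vehicle mean (circles, squares and triangles: replicates 1, 2 and 3; grey: vehicle; red: AVE0991). The core subunits and complex II lie at 0.11 or more in all AVE0991 libraries, and the other classes have AVE0991 replicate 2 as the lowest or nearly the lowest library, while all genes tested lie near 0.

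Transcript composition moved with these differences. Across 16865 tested genes the log2 fold change had a Spearman's rho of 0.499 with the GC content of the longest transcript, and across the 93 members 0.339 (genes are not independent replicates). Among members of at most 45% GC, 3 of 18 lay above 0 (median -0.20), and among those above 55% 13 of 19 did (median 0.08). The medians of all genes in the same ranges were -0.32 and 0.19. Members with longer transcripts also tended to lie higher: with the length implied by counts and FPKM the rho was 0.296, against -0.05 over all genes. Their median length was 636 bases, against 2562 bases for all genes tested. A correction of each library for its GC trend turned the relation among members round (rho -0.493). After it 38 of 93 lay above 0, with a median of -0.04 and 0 members passing. The count depended on the correction. It was 53 of 93 (median 0.02) with GC and length corrected together, and 32 of 93 (-0.06) with the transcript of nearest length. Whether GC content, the libraries or the treatment set these values was not tested.

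**Figure D5:**
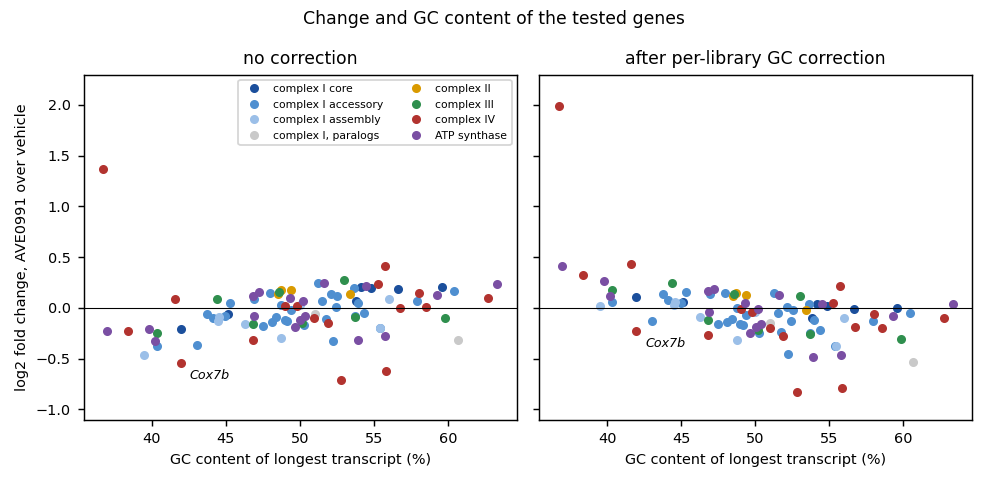
Log2 fold change of each tested member against the GC content of its longest transcript, as measured (left) and after the per-library GC correction (right), coloured by class. Members of low GC content lie mostly below 0 on the left, Cox7b among them at -0.54, and mostly above 0 on the right, where Cox7b stands at -0.22.

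Other genes of mitochondrial energy metabolism were followed as lists, and 0 genes of any of these 5 lists passed. Of 42 tested assembly factors of complexes I to IV and ATP synthase other than Ndufaf genes, 22 lay above 0 (median 0.02). By smallest p they were led by Coa6, a copper chaperone of complex IV (log2 fold change -0.40, SE 0.10, adjusted p = 0.104), Ttc19, a complex III factor (-0.74, SE 0.19), and Tmem186, a complex I factor (0.36, SE 0.10). Among 16 genes of electron carriers and ubiquinone synthesis 11 lay above 0 (median 0.09). Cycs, somatic cytochrome c, stood at 40.3 ± 1.72 CPM with vehicle and 32.5 ± 1.96 CPM with AVE0991 (SD, n = 3 each; -0.31, SE 0.09, adjusted p = 0.131), and Cyc1, the cytochrome c1 of complex III, at 122.7 ± 5.96 and 149 ± 7.70 CPM (0.28, SE 0.09, adjusted p = 0.152). After GC correction both lay above 0, Cycs at 0.0897 and Cyc1 at 0.0676.

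In the citric acid cycle with its pyruvate entry enzymes 12 of 19 lay above 0 (median 0.15). Dld, the dihydrolipoamide dehydrogenase shared by the pyruvate and oxoglutarate complexes, came closest to the threshold, at 60.0 ± 2.44 CPM against 41.9 ± 1.10 CPM (log2 fold change -0.52, SE 0.08, adjusted p = 0.0506). It passed in 7 of 23 alternatives, with an adjusted p of 2.02e-05 to 0.691 over all of them, and stood at -0.12 to -0.08 in the fits with GC correction. Pcx, pyruvate carboxylase, which in brain is an astrocyte enzyme, stood at 152.8 ± 21.7 and 231 ± 44.6 CPM (0.59, SE 0.18, adjusted p = 0.129). With AVE0991 replicate 1 alone against vehicle Pcx stood at 0.25. Of 16 regulators of mitochondrial biogenesis 10 lay above 0 (median 0.15). By smallest p they were led by the lipid-sensing receptor Ppara (0.50, SE 0.11, adjusted p = 0.0904), the mitochondrial RNA polymerase Polrmt (0.48, SE 0.13) and the coactivator Pprc1 (0.43, SE 0.14). Tfam, next by p, lay below 0 (-0.35, SE 0.11). With AVE0991 replicate 1 alone Ppara stood at 0.47, Polrmt at 0.24 and Pprc1 at 0.17. After GC correction these 3 stood at 0.38, 0.26 and 0.24. Of 21 carriers and outer membrane proteins 14 lay above 0 (median 0.07). Slc25a10, the dicarboxylate carrier, stood at 0.51 (SE 0.14), Ucp2 at 0.93 (SE 0.26) and Timm8b at -0.40 (SE 0.16). With AVE0991 replicate 1 alone they stood at 0.33, 0.44 and -0.18. The 13 subunits encoded by mitochondrial DNA were not found among the gene rows under the symbols searched, and so were not analysed here.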

How the data were processed

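RNA of 3 vehicle and 3 AVE0991 libraries was isolated by Trizol, cleared of ribosomal RNA, made into dUTP-marked libraries and read as DNA nanoballs, per the labels' protocols. Alignment used HISAT and mm9, per the submitters' processing notes. Versions, counting program, use of strand and annotation: not given in the sources used here. In 1 deposited table were the authors' estimated counts and their FPKM values per library (their unit was inferred from the values themselves). A comparison table held the authors' log2 fold changes, p-values and q-values, from DESeq2 per the file headers.

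Estimated counts of 36210 gene rows were rounded (81.6% were whole as deposited) and fitted in R 4.3.3 with edgeR 4.0.16: filterByExpr, TMM, robust quasi-likelihood F test, AVE0991 against vehicle, no covariates, Benjamini-Hochberg over 20363 genes, threshold 0.05. The 11824 circular RNA rows were left out of this fit and entered only an alternative that held them together with the gene rows. The common biological coefficient of variation was 24.7%. Standard errors are log2 fold changes divided by the root of F. CPM use TMM library sizes. FPKM were used for levels between genes, for the implied length and in the alternative limma fits on log2 FPKM. GC content and length came from GENCODE transcripts on GRCm38, and promoters from RefSeq. The chi-square between any pair of libraries was 16.4 or more per gene, above sampling noise, and each counted as 1 sample. The fit was checked on simulated data.

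Members and gene lists were chosen with earlier results of these data known. Named were members called, the 3 of smallest p and the 2 of highest FPKM per class, restricted isoforms, and up to 3 genes per list by smallest p. Cox5a, Cox5b, Cox7a2l, Atp5e and Tfam were quoted outside these rules, as was Atp5f1. Atp5s, not Atp5f1, was among the 3 ATP synthase members of smallest p. The role groups, and the values of Ndufv2, Atp5s and the members quoted for AVE0991 replicate 2, were chosen after values were seen. The values of 1 member are not reported here. The alternatives tried, DESeq2 1.42.0 and limma 3.58.1 among them, are listed in the closing section; 3 were chosen after seeing the data.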

Additional observations from a re-analysis of the deposited data

How the results depend on the processing

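Across 23 alternatives the 39 genes followed gave 896 values: 834 kept their direction and side of the threshold, 22 reversed, 26 passed newly and 14 no longer passed, all 14 of them Cox7b. The count of members called lower (1 as reported) was 2 with DESeq2 and 0 with RLE scaling, with circular RNA rows included, with implied length correction, with AVE0991 replicate 1 alone against vehicle and in each GC fit, and 0 to 1 when single libraries were left out. No alternative called a member higher. Genes called across the table (176 as reported) were 2347 with DESeq2, 1295 with limma-voom, 437 without a filter, 346 under a floor of 1 CPM on average, 294 and 319 with limma on log2 FPKM plus 0.1 and plus 1, 2 with circular RNA rows, 2 with implied length correction, 1 in each of the 3 GC fits, 0 with AVE0991 replicate 1 alone (where that library is assumed to vary like the vehicle libraries), and 0 to 2381 without single libraries, the 2381 being without AVE0991 replicate 1. The cause of these shifts was not tested. RLE scaling moved the member median from -0.05 to -0.03 and left the count above 0 at 45. With limma on log2 FPKM plus 0.1 and plus 1 the member median was -0.13 in each. The medians over all genes were -0.09 and -0.05 in these fits.

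Reversed values came only from GC corrections. With GC alone they were Atp5f1 0.42, Atp5s 0.11, Ndufa4 0.054, Ndufaf4 0.0191, Ndufs7 -0.0039, Uqcrb 0.18 and Cycs 0.0897; with GC and length Atp5f1 0.41, Atp5s 0.15, Ndufa4 0.12, Uqcrb 0.32 and Cycs 0.0653; with GC of the transcript of nearest length (chosen after seeing the data, like implied length and replicate 1 alone) Atp5s 0.14, Ndufaf4 0.0178, Uqcrb 0.0791 and Cycs 0.12.

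Replicate numbers did not pair the libraries: deviations of same-numbered libraries correlated at -0.0206, 0.092 and -0.353. With a replicate block 0 genes and 0 members were called, and Cox7b had adjusted p = 0.139. With the block and GC correction the counts were also 0 and 0, and the reversed values were Atp5f1 0.42, Atp5s 0.12, Ndufa4 0.063, Ndufaf4 0.0161, Uqcrb 0.17 and Cycs 0.0884. With 3 libraries per group, the median standard error of 0.12 limits the differences that could be detected in single members.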

Other observations

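Other groups of broadly expressed genes were described in the same way. Among 78 mitochondrial ribosomal protein genes 46 lay above 0 (median log2 fold change 0.03, 0 called), and among 38 tested proteasome subunits 20 did (median 0.01). In the latter Psmc6, an ATPase of the proteasome base, fell from 35.1 ± 1.57 to 20.6 ± 1.24 CPM (SD, n = 3 each; -0.77, SE 0.09, edgeR adjusted p = 0.0374). It passed in 10 of 23 alternatives. Its adjusted p was 0.0973 to 0.227 without any 1 library other than AVE0991 replicate 1 and 0.122 with a replicate block, and after GC correction its log2 fold change was -0.13 (adjusted p = 0.587), or -0.74 (adjusted p = 0.124) with the GC content of the transcript of nearest length. Among 92 tested genes with Rpl or Rps symbols, which include the Rps6k kinases, 29 lay above 0 (median -0.10, 0 called), and their summed level in AVE0991 replicate 2 was 8851 CPM, against 10930 to 13165 CPM in the other 5 libraries. That library was also low in the small respiratory subunits named above.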
